A study of Mus musculus with 6 samples.

Results

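The fragments described here are tRNA-derived sequences of 20 to 23 nt that end in CCA, the trinucleotide at the 3′ end of every mature tRNA. They were chosen by name and length: rows of the class tRF_3 of 20 to 23 nt, without the 3 families that share their last 13 nt with tRF_3_204, tRF_3_61 or tRF_3_62. The rule used no measured value and gave 110 of 1336 sequences, out of 347 CCA-ending sequences, and the 110 fall into 44 families by their last 13 nt. Small RNA was sequenced from hearts of 3 control mice, titled L/L and labelled Elac2 +/+, which carry a loxP-flanked Elac2 exon without cre, and of 3 knockout mice, titled L/L, cre and labelled Elac2 -/-. Cre in the knockout mice is driven by the promoter of muscle creatine kinase, which is active in striated muscle, so other cells of the heart keep the gene. All mice were on a C57BL/6 background, their age was not given in the sources used here and RNA came from the crude heart, with 1 library per mouse and inserts selected for 15 to 35 nt.

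ELAC2, an RNase Z, trims the 3′ trailer of precursor tRNAs, after which a nucleotidyltransferase adds CCA, so a CCA end marks a tRNA whose trailer was gone. Fragments that run from the T loop to the CCA end are known as tRF-3, and the longer of their 2 common sizes as tRF-3b. They have been found in Argonaute proteins, and roles in the silencing of transcripts and retroelements have been described for some of them.

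The sequences below are the most abundant members and those around the member called higher. They are shown 5′ to 3′ with the last 13 nt, which define the family, in capitals. The first 9 are the most abundant members, with the tRNA where the files or the reference gave one. The anticodon of tRF_3_210 was read only by pairing with the start of 5′ fragments, which is weaker evidence. The last 3 are tRF_3_202, the 1 member called higher in the knockout, and 2 closely related sequences that were not called.
tRF_3_183: tcgaatcccACTTCTGACACCA
tRF_3_182: tcgaatcccACTCCTGACACCA
tRF_3_199: tcgactcctGGCTGGCTCGCCA
tRF_3_211 (glycine, anticodon GCC): tcgattcccGGCCAATGCACCA
tRF_3_210 (glycine, anticodon TCC): tcgattcccGGCCAACGCACCA
tRF_3_213 (glycine, anticodon CCC): tcgattcccGGGCGGCGCACCA
tRF_3_169 (glutamine, anticodon CTG): tcaaatctcGGTGGAACCTCCA
tRF_3_200 (valine, anticodon TAC): tcgagccccAGTGGAACCACCA
tRF_3_185 (threonine): tcgaatcccAGCGGTGCCTCCA
tRF_3_172: tcaatccccGGCATCTCCACCA
tRF_3_203: tcgatccccAGCATCTCCACCA
tRF_3_202: tcgatccccAGCACCTCCACCA

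Most member counts were of a single length. Of their 8010 counts over the 6 libraries, 7407 (92.5%) were 22 nt long, 361 (4.51%) were 21 nt, 178 (2.22%) were 23 nt and 64 (0.799%) were 20 nt. By number of sequences the lengths were more even, with 12, 28, 49 and 21 members at 20, 21, 22 and 23 nt. Just inside and outside the length limits, the 12 members of 20 nt held 64 counts against 340 counts for the 21 CCA-ending sequences of 19 nt, and the 21 members of 23 nt held 178 counts against 47 for 12 sequences of 24 nt. The share of 22-nt counts was 94.7%, 90.3% and 90.2% in control replicates 1 to 3 and 93.1%, 90.8% and 91.9% in knockout replicates 1 to 3. The groups overlapped, with means of 91.7% ± 2.58 and 91.9% ± 1.13 (SD, n = 3; p = 0.90, Benjamini-Hochberg adjusted over 6 such tests 1.0, exact two-sided permutation test).

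The 5′ ends placed the cut inside the T loop. On the standard numbering that ends at 76, a fragment of 22 nt starts at position 55, the site of pseudouridine in most tRNAs, and fragments of 20, 21 and 23 nt start at positions 57, 56 and 54. All 49 members of 22 nt began with T, and 48 of 49 with TC. A T stood at position 55 in 70 of 70 members long enough to hold it, C at 56 in 97 of 98, A at 58 in 108 of 110 and C at 61 in 110 of 110. These are the conserved bases of the T loop and the T stem. The base ahead of CCA, the discriminator that helps aminoacyl-tRNA synthetases tell tRNAs apart, was A in 25 families, G in 11, T in 7 and C in 1. GC content ran from 47.6% to 76.2% with a median of 60.9%.

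Counts were few and uneven over the libraries. The members summed to 2711, 915 and 1189 counts in control replicates 1 to 3 and to 1112, 872 and 1211 in knockout replicates 1 to 3. Control replicate 1 stood apart from the other controls, in the sum and in its makeup as described below. Without it the mean control count was 1052, against 1065 ± 174 (SD, n = 3) in knockouts and 1605 ± 968 (SD, n = 3) over all controls (exact two-sided permutation test over all 6 libraries, p = 0.50, adjusted 0.75). Control libraries held 235046 to 773252 tRF counts in all and knockout libraries 45354 to 61712, and most of that difference lay in 5′ fragments. How deeply all small RNA was sequenced is unknown, and in bulk heart RNA fewer cells of a type and less RNA per cell cannot be told apart. Elac2 mRNA was not analysed here and tRNA fragments mark no cell type, so neither the genotype nor the tissue label could be checked.

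As a share of all tRF counts the members stood higher in each knockout library than in any control. They made up 1.15% (95% Wilson interval 1.11 to 1.2), 0.118% (0.111 to 0.126) and 0.314% (0.296 to 0.332) of control replicates 1 to 3. In knockout replicates 1 to 3 they made up 1.99% (1.88 to 2.11), 1.92% (1.8 to 2.05) and 1.96% (1.86 to 2.07), where the intervals cover counting error only. The 3 knockout values lay close together and the controls spread widely below them. The means were 0.529% ± 0.55 and 1.96% ± 0.0328 (SD, n = 3), and 0.216% in controls without replicate 1. The exact two-sided permutation test gave p = 0.10, the smallest that 3 against 3 mice allow, and 0.30 after adjustment over the 6 tests. The sum of 5′ fragment counts moved the other way, between 221913 and 768139 in controls against 38336 to 54640 in knockouts, and its part in the share was not tested. Scaled by TMM (trimmed mean of M values), which sets the bulk of tested fragments equal between libraries, the members summed to 11439, 5532 and 7885 CPM (counts per a common scaled library total) in controls and 8419, 7691 and 10762 CPM in knockouts, and the groups overlapped.

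Within the CCA-ending counts the members took a smaller share in the knockout. They were 38.9%, 39% and 45.2% of CCA-ending counts in controls and 28.7%, 24.4% and 30.5% in knockouts, so that each knockout lay below each control (41% ± 3.58 against 27.8% ± 3.14, SD, n = 3; p = 0.10, adjusted 0.30, exact two-sided permutation test). The 3 families left out by the rule moved the other way. At 20 to 23 nt they were 1.71% ± 0.73 of CCA-ending counts in controls and 18% ± 3.82 in knockouts (SD, n = 3), a difference that was not tested here. When those families were taken out of the denominator at every length, an alternative added after seeing the data, the members made up 49%, 42.5% and 51.5% in controls and 47.1%, 41.6% and 50.4% in knockouts (47.7% ± 4.62 against 46.4% ± 4.44, SD, n = 3; p = 0.70, exact two-sided permutation test). The shares then overlapped. Fragments of 16 to 19 nt, the shorter tRF-3 size, were 47.5% ± 8.2 and 51.3% ± 3.17 of CCA-ending counts (SD, n = 3).

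**Figure D1:**
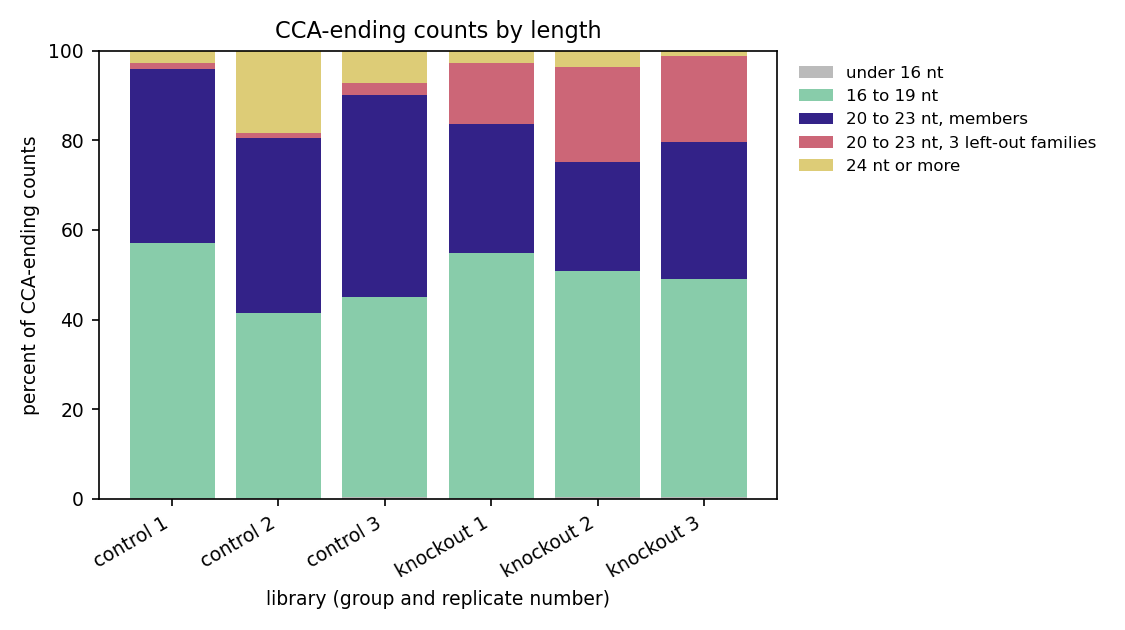
Percent of CCA-ending counts (y axis) in each of the 6 libraries (x axis), stacked by length, with the members of 20 to 23 nt apart from the 3 left-out families of that size. The members are 38.9% to 45.2% in controls and 24.4% to 30.5% in knockouts, where the left-out families reach 13.7% to 21%.

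The tRNA of origin could be read for 12 of 44 families, which held 39.3% of member counts. A longer sequence of the tables that overlaps a 5′ fragment with a readable anticodon arm gave 6 families, an annotated tRNA gene gave 5, and pairing with the acceptor stem of 5′ fragments gave 1. The amino acids were glycine (3 families, 17.5% of member counts), serine (the families of tRF_3_191 and tRF_3_186), and glutamine, valine, threonine, leucine, glutamate, aspartate and arginine with 1 family each. The 2 most abundant families, those of tRF_3_199 and tRF_3_183, were not assigned. A match names a tRNA that carries the sequence; reads cannot be traced to 1 gene where copies are near-identical.

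Most counts came from few families. The 8 with the highest mean CPM held 76.8% of member counts, 16 families had 1 member and the largest had 9. The family of tRF_3_199 made up 4.72%, 27.1% and 29.4% of member counts in control replicates 1 to 3 and 17.9%, 20.6% and 18.1% in knockouts. Control replicate 1 was far below every other library and the other controls were above every knockout, so the means of 20.4% ± 13.6 and 18.9% ± 1.53 (SD, n = 3) hide the order (p = 1.0, exact two-sided permutation test). The control mean was 28.2% without replicate 1. The family of tRF_3_183 made up 15.4%, 23.5% and 19.5% in controls and 12.7%, 23.7% and 18.4% in knockouts, and the groups overlapped. In control replicate 1 the families of tRF_3_182 and tRF_3_200 took 14.6% and 13.8%, more than in any other library.

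**Figure D2:**
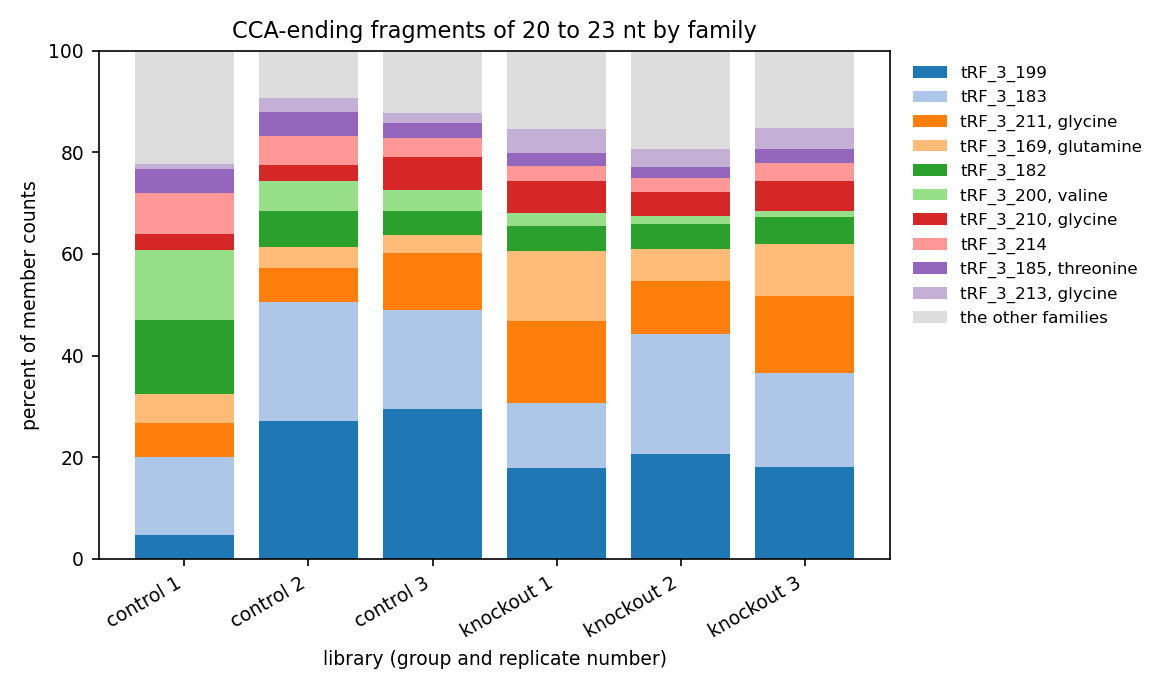
Percent of member counts (y axis) in each library (x axis), stacked by the 10 families with the highest mean CPM and the other families. The tRF_3_199 family is 4.72% in control replicate 1 against 27.1% and 29.4% in the other controls, and the valine family of tRF_3_200 is 4.21% to 13.8% in controls and 1.24% to 2.7% in knockouts.

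For a test of single sequences all 1336 fragments were fitted together, and 24 members passed the filter on low counts, 21 of them of 22 nt. The filter worked on library totals before TMM scaling, so fewer counts were enough in the smaller knockout libraries than in controls. The other 86 members held 8.38% of member counts, with 1 to 44 counts each over the 6 libraries and a median of 4. Of the 24 tested members 1 was higher and 1 was lower in the knockout (quasi-likelihood test of edgeR on TMM-scaled counts, Benjamini-Hochberg adjusted p under 0.05). Over all 254 tested fragments 32.7% were called, 15.7% higher and 16.9% lower. A further member passed only at an unadjusted p under 0.05, which made 3 of 24, against 99 of 254 over all tested fragments. The log2 fold changes of the 24 ran from -2.24 to 2.32 with a median of -0.14, against a median of 0.06 over all tested fragments, and 11 lay above 0 and 13 below.

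The valine fragment tRF_3_200 was the member that fell. Valine is a branched-chain amino acid, and this tRNA reads its codons through the anticodon TAC. It had 370, 53 and 49 counts in control replicates 1 to 3 and 30, 12 and 15 in knockouts, or 1561, 320.5 and 325 CPM against 227, 106 and 133 CPM. Every knockout lay below every control, and control replicate 1 was far above the other 2. The log2 fold change was -2.24 (SE 0.78, adjusted p = 0.037, edgeR). Without control replicate 1 it was -1.08 and not called (adjusted p = 0.12, edgeR), and without any 1 knockout library it stayed between -2.56 and -2.10 but was not called (adjusted p = 0.082 to 0.15, edgeR). The call was also lost with library totals alone (-0.74, adjusted p = 0.56, edgeR), upper-quartile scaling (adjusted p = 0.053, edgeR) and limma-voom (-1.84, adjusted p = 0.1). The authors' deposited table gives a log2 fold change of -2.45 (SE 0.80) with an adjusted p of 0.018, the only member of 46 with an adjusted p there that is under 0.05; over all sequences with an adjusted p that share was 16.9%.

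The whole valine family, 22-nt form and its 3 rarer lengths summed, fell as well. It had 1251, 451 and 387 CPM in controls and 199, 114 and 121 CPM in knockouts (log2 fold change -2.27, SE 0.58, adjusted p = 0.01 over 101 tested families, edgeR). CPM of families is relative to a table of families and is not on the scale of single fragments. Without control replicate 1 the log2 fold change was -1.49 (adjusted p = 0.019, edgeR). The call was lost with library totals alone in place of TMM (-0.71, adjusted p = 0.53, edgeR) and without any 1 knockout library (adjusted p = 0.074 to 0.15). Of its 536 counts 98.7% were 22 nt. The 2 sequences of the tables that hold tRF_3_200 without its CCA, followed by trailer sequence, are tRF_5_553 of 94 nt and tRF_5_554 of 96 nt; they had 0 counts in every control and 1, 1 and 1 in the 3 knockouts when added together.

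The member called higher was tRF_3_202, whose tRNA was not assigned. It had 0, 6 and 2 counts in controls and 11, 10 and 8 in knockouts, or 0, 36.3 and 13.3 CPM against 83.3, 88.2 and 71.1 CPM. It passed the filter only through the knockout libraries, so being tested at all depended on the group where it was high. With a filter of at least 10 counts in 3 libraries it was not tested. Each knockout was above each control, at counts near the limit that a count of 0 allows (3 counts, 0.00128% of tRF counts in control replicate 1). The log2 fold change was 2.32 (SE 0.87, adjusted p = 0.049, edgeR). The call was lost with DESeq2 (2.18, adjusted p = 0.26), with DESeq2's size factors in edgeR (2.18, adjusted p = 0.068) and with no filter (1.92, adjusted p = 0.43, edgeR). It was also lost without control replicate 1 (1.62, adjusted p = 0.07, edgeR) or 3 (2.19, adjusted p = 0.18) and without any 1 knockout library (adjusted p = 0.15), while without control replicate 2 the log2 fold change was 3.67 (adjusted p = 0.0087, edgeR). The authors' deposited table gives 2.18 (SE 1.24) with an adjusted p of 0.26.

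Its near-identical neighbour tRF_3_203 differs by 1 base, C14T from tRF_3_202 to tRF_3_203 with positions counted from the 5′ end. It had 16, 2 and 8 counts in controls and 12, 24 and 20 in knockouts, or 44.2 ± 28.7 CPM against 160.1 ± 62.3 CPM (SD, n = 3), and it was not called (log2 fold change 1.81, SE 0.76, adjusted p = 0.081, edgeR). With a filter of at least 10 counts in 3 libraries it was the 1 member called higher (1.99, adjusted p = 0.037, edgeR). Summed over its lengths the family of tRF_3_203 rose, with 16, 2 and 8 counts in controls and 21, 25 and 27 in knockouts, or 44.1 ± 24.1 CPM against 187 ± 42 CPM (SD, n = 3; log2 fold change 2.02, SE 0.59, adjusted p = 0.024, edgeR). The groups did not overlap. Both tRF_3_203 and its family passed the main filter only through the knockout libraries. Being tested at all thus depended on the group where they were high. The call was lost with DESeq2 (adjusted p = 0.087), with upper-quartile scaling (adjusted p = 0.067, edgeR), and without control replicate 2 or 3 or any 1 knockout library (adjusted p = 0.051 to 0.11, edgeR). The 21-nt and 23-nt forms of this family had 0 of 26 counts in the controls together, which allows up to 11.5%. In knockout replicates 1 to 3 they had 9 of 21, 1 of 25 and 7 of 27 counts, together 17 of 73 (23.3%). The knockouts thus differed among themselves, with replicate 2 near the controls. The family was singled out for this after its values were seen, and the difference was not tested. The family of tRF_3_202 had 0, 50.1 and 15.5 CPM in controls and 86, 89.4 and 96.8 CPM in knockouts and was not called (log2 fold change 2.30, SE 0.86, adjusted p = 0.082, edgeR).

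The third sequence of that set, tRF_3_172, differs from tRF_3_203 by A3G and G10A (tRF_3_172 first) and showed another pattern. It had 122, 7 and 6 counts in controls and 21, 27 and 28 in knockouts, or 515, 42.3 and 39.8 CPM against 159, 238 and 249 CPM. Control replicate 1 lay above every knockout and the other 2 controls below, and the log2 fold change was 0.09 (SE 0.89, adjusted p = 0.96, edgeR). Without control replicate 1 it was 2.33 (adjusted p = 0.0063, edgeR). How the authors assigned reads between sequences that differ at 1 or 2 bases was not given in the sources used here.

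**Figure D3:**
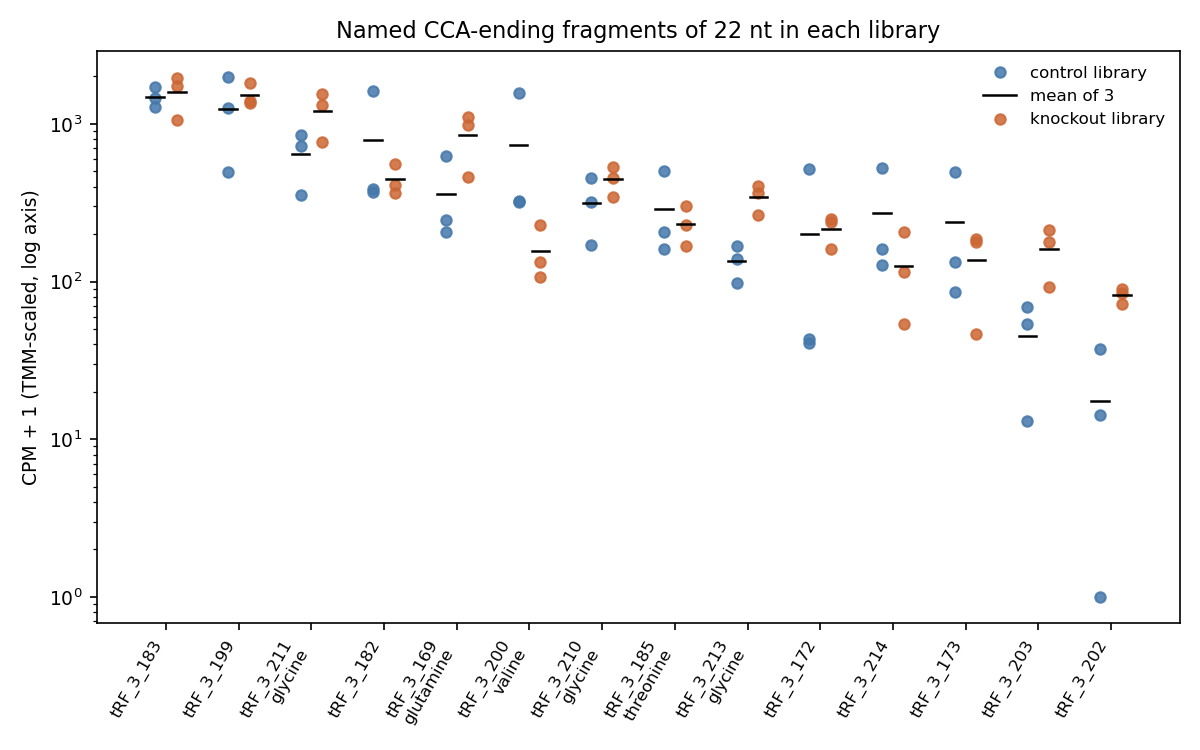
CPM plus 1 on a log axis (y axis) of the 14 named members (x axis) in each library, with points for libraries and lines for the mean of 3. The knockout points of tRF_3_200 all lie below its control points, those of tRF_3_213, tRF_3_203 and tRF_3_202 all lie above, and control replicate 1 is the high point of tRF_3_182, tRF_3_200 and tRF_3_172.

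Among families, 21 of 44 were tested, 1 was higher and 1 was lower, the tRF_3_203 and tRF_3_200 families given above. Over all 101 tested families 17.8% were called, 8.91% in each direction. The families of tRF_3_202 and tRF_3_169 also had an unadjusted p under 0.05, which made 4 of 21. The share over all tested families at that threshold was not counted, so this number has no background beside it. The CPM of the groups did not overlap in 6 of the 21, where 33.7% of all tested families did not overlap. The knockout was above in the families of tRF_3_203, tRF_3_202, tRF_3_213 and tRF_3_207 and below in those of tRF_3_200 and tRF_3_214; tRF_3_207, with 30 counts in all, was singled out after its values were seen. This split holds for tested families only, since the filter needed fewer counts in the knockout libraries. The families with the knockout above all passed the filter only through the knockout libraries. In the untested families of tRF_3_186 (45 counts in all) and tRF_3_179 (18 counts) each knockout lay below each control in CPM. The median log2 fold change of the 21 tested families was -0.18, against -0.10 over all tested families.

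The most abundant members of the 3 glycine families had values above 0 on the log2 scale that did not pass the test. Summed as families, those of tRF_3_211, tRF_3_210 and tRF_3_213 had log2 fold changes of 0.68, 0.28 and 1.05. None of the 3 families was called (adjusted p = 0.4, 0.82 and 0.21, edgeR). Glycine is the smallest amino acid, and the 3 families were read with 3 different glycine anticodons. That of tRF_3_210 rests only on pairing with the acceptor stem of 2 5′ fragments. The most abundant, tRF_3_211, had 171, 58 and 128 counts in controls and 174, 87 and 175 in knockouts, or 722, 351 and 849 CPM against 1317, 767 and 1555 CPM. The groups overlapped (log2 fold change 0.92, SE 0.63, adjusted p = 0.31, edgeR). The fragment tRF_3_210, which differs from tRF_3_211 by C16T (tRF_3_210 first), had 321, 169 and 451 CPM in controls and 454, 344 and 533 CPM in knockouts and overlapped too (log2 fold change 0.50, SE 0.66, adjusted p = 0.62, edgeR). The third, tRF_3_213, had 23, 23 and 25 counts in controls and 48, 30 and 45 in knockouts, or 97.1, 139 and 166 CPM against 363, 265 and 399.9 CPM. Its groups did not overlap, and the log2 fold change of 1.35 (SE 0.69) was not called (adjusted p = 0.16, edgeR). This fragment also passed the filter only through the knockout libraries. Without its CCA tRF_3_213 matched the tRNA gene n-TGccc7 at chr17:25875140-25875158 on the plus strand of GRCm38, in a non-coding part of exon 1 of Mettl26.

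The glutamine fragment tRF_3_169 was next. Glutamine tRNA with the anticodon CTG reads the codon CAG. The fragment had 148, 34 and 37 counts in controls and 147, 52 and 110 in knockouts, or 358 ± 231 CPM against 849.7 ± 345 CPM (SD, n = 3). On the CPM scale only knockout replicate 2 fell within the range of the controls. The log2 fold change was 1.24 (SE 0.68) and was not called (adjusted p = 0.19, edgeR), while without control replicate 1 it was 1.88 (adjusted p = 0.0088, edgeR). As a share of member counts its family made up 5.72%, 4.26% and 3.45% in controls and 13.8%, 6.31% and 10.2% in knockouts.

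The threonine fragment tRF_3_185 overlapped between the groups, with 502, 206 and 159 CPM in controls and 227, 168 and 302 CPM in knockouts (log2 fold change -0.32, SE 0.71, adjusted p = 0.78, edgeR). Its family is shown as an example of the nested forms, which share the CCA end (capitals) and differ in where the T loop was cut.
tRF_3_125: gaatcccagcggtgcctCCA
tRF_3_146: cgaatcccagcggtgcctCCA
tRF_3_185: tcgaatcccagcggtgcctCCA
tRF_3_226: ttcgaatcccagcggtgcctCCA
The 20-nt, 21-nt and 23-nt forms had 7, 19 and 5 counts, all of them in controls. Together they made up 31 of 208 control counts of the family (14.9%), with 13, 9 and 9 in the 3 controls, and 0 of 83 knockout counts, which allows up to 3.61%. No test was made of this difference, which was picked out after the values were seen. Of the counts of at most 23 nt that share these last 13 nt, the members took 72.5%, 62.3% and 55% in controls and 43.5%, 41.3% and 44.7% in knockouts, each knockout below each control.

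The sequence of tRF_3_185 also occurs outside tRNA. Without its CCA it matched the threonine tRNA gene n-TTagt9 at chr7:35234770-35234788 on the minus strand of GRCm38. Its first 20 nt are also the start of the microRNA mmu-miR-5100 at chr11:60728698-60728718 on the plus strand (RefSeq, GRCm38.p6), printed here with the seed in capitals to show the overlap with the forms above.
mmu-miR-5100: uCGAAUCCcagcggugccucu
The microRNA ends differently, without CCA. The abundant fragment tRF_3_183 shares a run of 16 nt with mmu-miR-3963 at chr3:151023839-151023857 on the minus strand, but not its start.
mmu-miR-3963: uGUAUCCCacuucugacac
The microRNAs themselves were not analysed here.

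The abundant members without an assigned tRNA were near 0 or below it on the log2 scale, and none was called. tRF_3_183 had 406, 210 and 220 counts in controls and 140, 197 and 221 in knockouts, or 1713, 1269.7 and 1459 CPM against 1060.0, 1738 and 1964 CPM (log2 fold change 0.10, SE 0.58, adjusted p = 0.93, edgeR). tRF_3_182, which differs from it by C13T (tRF_3_182 first), had 384, 64 and 56 counts in controls and 54, 41 and 63 in knockouts, or 1620.3, 387 and 371 CPM against 409, 362 and 559.8 CPM (log2 fold change -0.84, SE 0.70, adjusted p = 0.41, edgeR). The 2 sequences stood at close levels in control replicate 1, while in every other library tRF_3_183 was the higher. tRF_3_199 had 494, 1252 and 1989.6 CPM against 1348, 1402 and 1813 CPM (log2 fold change 0.29, SE 0.63, adjusted p = 0.78, edgeR). In the 3 sequences the groups overlapped.

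The family of tRF_3_214 holds 9 members, the most of any, and 3 of its 22-nt members, tRF_3_214, tRF_3_197 and tRF_3_190, differ only at position 5 (C5T from tRF_3_197 to tRF_3_214, A5C from tRF_3_190 to tRF_3_197). The family had 721, 443 and 356 CPM in controls and 218, 195 and 347 CPM in knockouts. Its groups did not overlap, by a small margin, and it was not called (log2 fold change -1.01, SE 0.51, adjusted p = 0.21, edgeR). tRF_3_214 itself had 124, 21 and 24 counts against 15, 6 and 23, or 269.8 ± 220.1 CPM against 124 ± 76.2 CPM (SD, n = 3; log2 fold change -1.13, SE 0.79, adjusted p = 0.32, edgeR). tRF_3_173, of another family, had 117, 14 and 20 counts in controls and 6, 21 and 20 in knockouts, or 237 ± 224 CPM against 136 ± 78.6 CPM (SD, n = 3; log2 fold change -0.81, SE 0.82, adjusted p = 0.50, edgeR). Control replicate 1 was again the high library in both.

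The other families with an assigned tRNA were less abundant, and they are listed for their tRNA, outside the rule for named members. The leucine family of tRF_3_180 had 40, 4 and 22 counts in controls and 22, 10 and 11 in knockouts (log2 fold change -0.11, SE 0.61, adjusted p = 0.93, edgeR). The serine family of tRF_3_191, whose sequence without CCA occurs in the genes n-TSaga9, n-TStga1 and n-TStga2, had 31, 5 and 26 counts against 11, 20 and 6 (log2 fold change -0.29, SE 0.65, adjusted p = 0.85, edgeR). In both families the groups overlapped. The glutamate family of tRF_3_196 had 55, 8 and 3 counts in controls and 11, 6 and 7 in knockouts and overlapped as well (log2 fold change -0.69, SE 0.68, adjusted p = 0.56, edgeR). The second serine family, that of tRF_3_186, had 26, 6 and 5 counts against 3, 1 and 4 and did not pass the filter on low counts. Its knockouts lay below its controls, at 87.2, 50.1 and 38.7 CPM in controls against 19.9, 8.12 and 32.3 CPM. The aspartate family of tRF_3_131 and the arginine family of tRF_3_201 held 2 and 3 counts in all, each of them in controls.

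Scaling decided the direction of many members. With library totals alone the median log2 fold change over all tested fragments was 2.15 instead of 0.06, so the values above stand relative to the bulk of the fragments tested. On that scale the 24 members had a median of 1.88, 8 were higher and 0 lower, where 43.7% of all tested fragments were called. tRF_3_200 alone of the 14 named members kept a value below 0 there (-0.74, adjusted p = 0.56, edgeR).

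**Figure D4:**
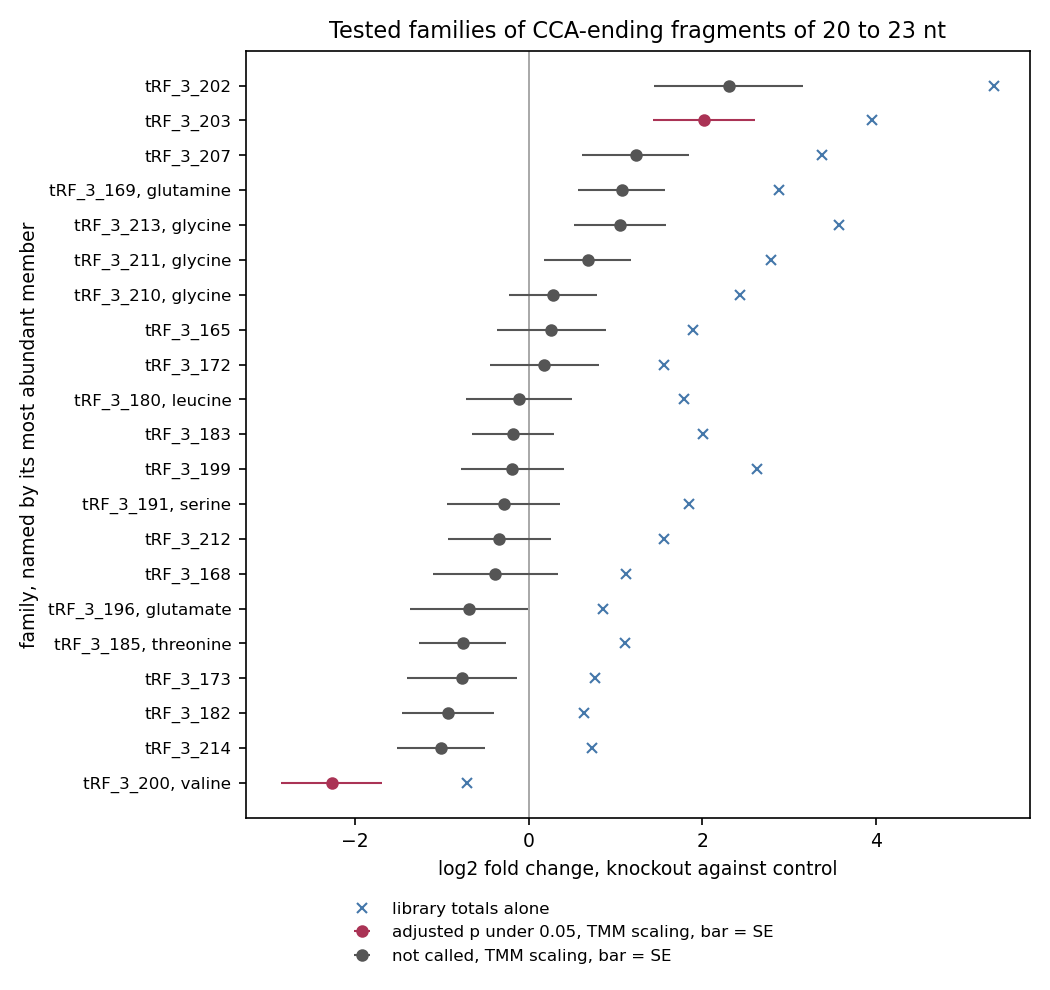
log2 fold change, knockout against control (x axis), of the 21 tested families (y axis), with TMM scaling (points, bars of 1 SE) and with library totals alone (crosses). With TMM scaling the values run from -2.27 for the valine family to 2.30 for the tRF_3_202 family; with library totals alone every family but the valine family lies above 0.

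Other CCA-ending fragments were counted in the same fit. Of 160 sequences of other lengths that share their last 13 nt with a member, 18 were tested and 0 were called (edgeR; 1 had an unadjusted p under 0.05), with a median log2 fold change of 0.23. With library totals alone 5 of these were called higher. On that scale 104 of all 254 tested fragments were called higher, which is also the background for the 2 lists below. Of 99 CCA-ending sequences of 16 to 19 nt, 24 were tested, 5 were higher and 0 lower, where 15.7% of all tested fragments were higher, with a median of 0.66; with library totals alone 9 were called higher. That list takes in every CCA-ending family, the 3 left-out families included. Of 107 sequences of 24 nt or more, 4 were tested and 0 were called (edgeR; 0 had an unadjusted p under 0.05), with a median of -1.30; with library totals alone 1 was called. For families that have members, the 20 to 23 nt forms were 51%, 53.3% and 56.3% of counts of at most 23 nt in controls and 49.7%, 44.8% and 51.8% in knockouts (53.5% ± 2.66 against 48.8% ± 3.57, SD, n = 3; p = 0.20, adjusted 0.40, exact two-sided permutation test). The difference of -4.76 percentage points was -2.79 without knockout replicate 2.

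How far a family lay in the 20 to 23 nt size differed from tRNA to tRNA and did so in both groups. The families of tRF_3_211, tRF_3_210, tRF_3_173, tRF_3_212, tRF_3_203 and tRF_3_168 had no counts of 19 nt or less. Members were thus 100% of their counts of at most 23 nt in every library. The same held for the family of tRF_3_202 in every library but control replicate 1, where it had no counts. For the valine family of tRF_3_200 the share of members was 98.2% to 100%, and for tRF_3_199 it was 91.4% to 98.3%. The leucine family of tRF_3_180, which without its CCA matched n-TLaag4 at chr7:120917580-120917598 on the plus strand of GRCm38, stood at the other end, with 8.6%, 3.25% and 11.2% in controls and 5.99%, 3.42% and 3.28% in knockouts. The serine family of tRF_3_191 had 15.7%, 4.76% and 13.2% in controls and 12.4%, 18.5% and 5.61% in knockouts. The groups did not overlap in the family of tRF_3_214, with 25%, 17.3% and 24.1% in controls and 10.9%, 10.8% and 16.1% in knockouts. There, as in the threonine family of tRF_3_185 given above, each knockout lay below each control, which was not tested. In the rest of the 21 families with the highest mean CPM the groups overlapped in this share. How often it did not overlap in families beyond these was not counted. The glutamate family of tRF_3_196 had more counts of 24 nt or more, 220 in controls and 95 in knockouts, than of its members, 66 and 24.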

How the data were processed

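Small RNA of 6 mouse hearts was measured as raw read counts per tRNA fragment sequence, which the authors deposited with 1 column per mouse. Per the labels each mouse had 4 technical replicates, combined in a way not given in the sources used here. The submitters' processing notes name build mm10, DESeq2 1.16.1, cutadapt 1.1.4 and Bowtie2 2.2.9, without their order. The authors' deposited table holds their log2 fold changes and p-values; their normalized counts were not used.

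The members and lists were chosen with earlier results of these data known. Sequences were summed by their last 13 nt. edgeR 4.0.16 (R 4.3.3) was fitted by the quasi-likelihood method to all 1336 fragments, and to a table of families, after filterByExpr (minimum count 10) and TMM scaling, with no term but group, and p-values were Benjamini-Hochberg adjusted at 0.05. CPM was taken over the TMM-scaled total of tested fragments (or families). For fragments the TMM factors were 1.02, 0.215 and 0.4 for controls and 2.41, 2.56 and 1.85 for knockouts. For families they were 1.27, 0.155 and 0.342 for controls and 2.71, 2.72 and 2.01 for knockouts. For shares, exact two-sided permutation tests ran over 20 assignments (SciPy 1.17.1). Each library was 1 mouse. A count of 0 allows up to 3 counts; such limits and the intervals cover counting error only, since the reads carry no molecular identifiers that the sources name.

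Named are the members called, the 12 members and 8 families with the highest mean CPM, the families called, and the most abundant member of each such family. Anticodons were read in arms of 5 bp with a 7-nt loop, from overlaps of at least 12 nt; tRNA gene positions came from RefSeq and transcripts from GENCODE, both of GRCm38, the assembly of mm10. A genome sequence was not used here. Alternatives were other scalings, filters, DESeq2 1.42.0, limma-voom (limma 3.58.1), a block on replicate number, leaving out each library, and other length limits and family keys. The edgeR step was tested on simulated data.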

Additional observations from a re-analysis of the deposited data

How the results depend on the processing

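The calls were few and depended on the setting. Against 1 member higher and 1 lower, there were 0 higher and 1 lower with DESeq2's size factors and 8 and 0 with library totals. Upper-quartile scaling gave 2 and 0, no filter 0 and 2, DESeq2 0 and 1, and limma-voom 1 and 0. Leaving out 1 library each gave 0 to 3 higher and 0 to 1 lower. Over all 254 tested fragments the main fit gave 40 higher and 43 lower. There DESeq2's size factors gave 35 and 43, library totals 104 and 7, upper-quartile scaling 52 and 36, and limma-voom 40 and 32. With no filter there were 25 and 74 of 1336, and with DESeq2 29 and 61 of 532. Leaving out 1 library each gave 30 to 49 higher and 26 to 42 lower over all tested fragments. Against 1 family higher and 1 lower there were 6 and 0 with library totals and 0 and 1 with upper-quartile scaling. At least 10 counts in 3 libraries gave 2 and 1, DESeq2 gave 0 and 1, and families keyed by the last 10 nt gave 0 higher. Leaving out 1 library each gave 0 to 3 families higher and 0 to 1 lower. Over all 101 tested families the main fit gave 9 higher and 9 lower, library totals 36 and 0, and upper-quartile scaling 7 and 7. At least 10 counts in 3 libraries gave 12 and 10 of 90, DESeq2 6 and 12 of 124, and the last 10 nt 8 and 9 of 100. Leaving out 1 library each gave 4 to 12 higher and 4 to 16 lower over all tested families. Leaving out any 1 knockout library ended the family calls of tRF_3_200 and tRF_3_203.

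The replicate number as a block gave 0 members higher and 0 lower (adjusted p = 0.063 for both tRF_3_200 and tRF_3_202, edgeR), and 2 families higher and 1 lower. Over all tested fragments the block gave 35 higher and 31 lower, and over all tested families 10 and 10. Same-numbered libraries had correlations of 0.18, 0.09 and -0.13 over the tested members, and control replicate 3 correlated best with knockout replicate 2 (0.33), so the numbers were not taken to pair the mice.

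The summed count ratio was 0.11 on the log2 scale for TMM-scaled CPM and ran from -0.87 to 0.02 when 1 library was left out (0.02 without control replicate 1), against -0.59. The difference in 22-nt share, 0.189 percentage points, was -0.173 with the left-out families and ran from -0.563 to 1.68 when 1 library was left out; that of the tRF_3_199 family, -1.55, ran from -9.4 to 2.96, and that of members against shorter forms, -4.76, from -6.27 to -2.79.

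The log2 values that changed sign had not been called with TMM scaling. With library totals they were 0.65 for tRF_3_182, 1.33 for tRF_3_185, 0.36 for tRF_3_214 and 0.68 for tRF_3_173, and 2.63, 2.01, 0.63 and 0.73 for the families of tRF_3_199, tRF_3_183, tRF_3_182 and tRF_3_214; of these the tRF_3_199 family was called there (adjusted p = 0.033, edgeR). With no filter they were -0.23 for tRF_3_183, -0.04 for tRF_3_199 and -0.21 for tRF_3_172. tRF_3_172 was -0.08 with DESeq2 or its size factors, and tRF_3_185 was 0.03 with upper-quartile scaling. The tRF_3_199 family was 0.30 and the tRF_3_183 family 0.11 with at least 10 counts in 3 libraries, and the tRF_3_199 family was 0.06 with limma-voom and 0.13 with the replicate block. When 1 library was left out, tRF_3_183 ran from -0.07 to 0.49, tRF_3_199 from -0.12 to 0.76, tRF_3_182 from -1.21 to 0.19, tRF_3_185 from -0.65 to 0.31, tRF_3_172 from -0.41 to 2.33, tRF_3_173 from -1.24 to 0.28, and the families of tRF_3_199 and tRF_3_183 from -0.63 to 0.32 and from -0.26 to 0.34. The cause of these changes was not tested.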
